A study of Mus musculus with 16 samples.

Results

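Cultured mouse embryonic fibroblasts were compared at 2 times, while they proliferated at day 2 in vitro and after they had entered quiescence at day 8. Quiescence is a reversible exit from the cell cycle, in which a cell stops dividing but can start again. All 4 cell lines of the study were used, each at both days, and the day 8 library of a line was set against the day 2 library of the same line. This took in 8 of the 16 libraries of the series, 4 at each day, and the libraries of days 10 and 12 are quoted for their levels only.

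The cells were of the C57BL/6 strain and came from embryos of embryonic day 13.5. They were either wildtype (Zac+/+, 2 lines) or Zac1 mutant (Zac+/-, 2 lines), Zac1 being the gene now called Plagl1, an imprinted zinc finger transcription factor. The titles code the mutant lines as KOpat, and neither the mutation nor this code was explained in the sources used here. Both genotypes were kept in the same medium, DMEM with 10% fetal bovine serum, at both days. The labels name the day 2 cells proliferative and the day 8 cells quiescent, so state, time in culture and cell density cannot be told apart. Replicate 1 of each genotype carries the letter I in its title and replicate 2 the letter L, and what these letters mark was not given. Whether each line came from 1 embryo or from a pool was not given either. The p-values measure how the day 8 to day 2 change varies between these lines. Values below are in the order wildtype replicate 1, wildtype replicate 2, mutant replicate 1, mutant replicate 2.

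A fibroblast that leaves the cell cycle loses the transcripts that cells need to copy DNA and to divide. Many of these transcripts come from promoters bound in resting cells by the DREAM complex. In it the pocket proteins p107 or p130 and the E2F4 factor sit on E2F sites. Its other part, the MuvB core, binds a short element called CHR (cell cycle genes homology region). Resting fibroblasts are not idle, since they remain a major source of extracellular matrix, the collagens, proteoglycans and glycoproteins that surround connective tissue cells.

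The table held 23100 genes, of which 14257 had enough counts to be tested. Total counts per library ran from 28079241 to 61039793 at day 2 and from 49296778 to 58661499 at day 8, so depth varied more among the day 2 libraries. Of the genes tested, 8848 (62.1%) had an adjusted p under 0.05 in edgeR's quasi-likelihood test, and 9358 had an unadjusted p under 0.05. With TMM scaling, which places the bulk of the changes near 0, 4498 genes (31.5%) were called higher at day 8 and 4350 (30.5%) lower. This nearly even split depends in part on the scaling, since 56.3% of the calls were higher with library totals alone. Changes of at least 4-fold were more often rises, in 662 genes (4.64%), than falls, in 212 genes (1.49%). Among the called genes, 8574 moved in the same direction in all 4 lines. The 4 libraries of one day did not overlap those of the other for 8145 genes (57.1%). The median log2 fold change (day 8 minus day 2) was 0.03 over all genes tested, and the median size of a called change was 0.72. With this much of the transcriptome moving, a list of genes is described below by how many members moved and by how much, beside these background shares. In RNA from whole cultures, fewer cells that express a gene and less RNA per cell cannot be told apart.

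**Figure D1:**
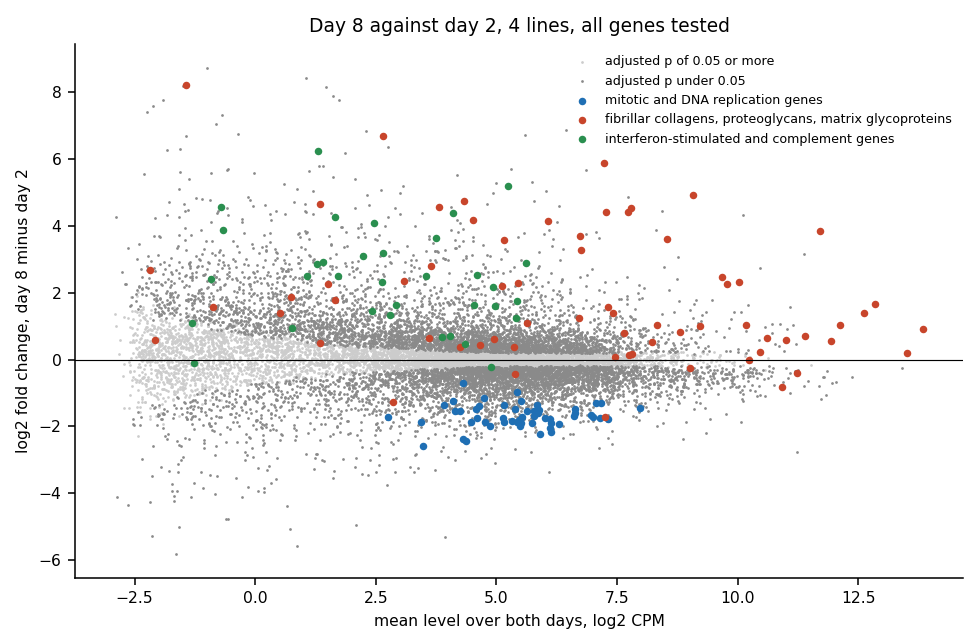
Log2 fold change of day 8 against day 2 (vertical axis) by the mean level over both days in log2 CPM (horizontal axis) for the 14257 genes tested, each point a gene. Mitotic and DNA replication genes (blue) form a band below 0. Fibrillar collagens, proteoglycans and matrix glycoproteins (red) lie mostly above 0 from low to high levels. Interferon-stimulated and complement genes (green) lie mostly above 0 at low and middle levels.

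The cell division genes fell together. All 27 tested genes of the mitotic spindle, kinetochore and cytokinesis fell (median log2 -1.74, of 28 listed), as did all 26 DNA replication genes (median -1.71) and all 14 genes of nucleotide synthesis (median -1.36). Across all genes tested the share called lower was 30.5%. Some promoters are shown here because the shares of promoters with a CHR element, a CCAAT box or an E2F site can be set beside each other for the mitotic and the replication genes. Sequences are from RefSeq (GRCm38.p6), run from 250 bases before to 50 bases after the gene's start, and are written 5′ to 3′ on the strand of the gene.

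The promoter of Aurka, at chr2:172370521-172370820 on the minus strand, belongs to the mitotic list. That of Cdk1, at chr10:69352863-69353162 on the minus strand, belongs to the list of cyclins and their kinases, which is not part of the shares given below. Capitals mark, on either strand, the CHR element (TTTGAA or its variant TTCGAA), the CCAAT box (CCAAT) and E2F sites (TTTCGCGC, TTTGGCGC or TTCCCGCC), with overlapping matches run together. The Cdk1 window holds CHR, CCAAT and E2F matches, and the Aurka window CHR and CCAAT matches.
Aurka promoter: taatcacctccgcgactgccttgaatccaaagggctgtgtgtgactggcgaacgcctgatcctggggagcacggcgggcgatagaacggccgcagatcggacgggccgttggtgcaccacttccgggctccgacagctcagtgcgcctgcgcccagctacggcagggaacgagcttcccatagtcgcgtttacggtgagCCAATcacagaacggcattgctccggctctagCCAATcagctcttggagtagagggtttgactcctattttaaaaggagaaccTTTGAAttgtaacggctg
Cdk1 promoter: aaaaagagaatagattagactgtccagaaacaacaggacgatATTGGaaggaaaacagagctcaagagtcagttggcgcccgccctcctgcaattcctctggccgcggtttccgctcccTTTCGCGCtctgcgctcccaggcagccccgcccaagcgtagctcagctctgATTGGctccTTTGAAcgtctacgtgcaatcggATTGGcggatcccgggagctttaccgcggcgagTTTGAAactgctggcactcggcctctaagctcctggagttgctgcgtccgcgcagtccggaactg

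The promoters of Mcm6, at chr1:128359656-128359955 on the minus strand, and of Mcm3, at chr1:20820263-20820562 on the minus strand, belong to subunits of the replicative helicase. Capitals mark the same elements.
Mcm6 promoter: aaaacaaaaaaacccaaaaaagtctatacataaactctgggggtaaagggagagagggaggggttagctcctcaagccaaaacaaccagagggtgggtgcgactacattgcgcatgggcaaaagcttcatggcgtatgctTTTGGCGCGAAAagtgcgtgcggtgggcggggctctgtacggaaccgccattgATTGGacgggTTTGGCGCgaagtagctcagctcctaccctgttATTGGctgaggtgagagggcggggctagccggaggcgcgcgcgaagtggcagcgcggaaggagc
Mcm3 promoter: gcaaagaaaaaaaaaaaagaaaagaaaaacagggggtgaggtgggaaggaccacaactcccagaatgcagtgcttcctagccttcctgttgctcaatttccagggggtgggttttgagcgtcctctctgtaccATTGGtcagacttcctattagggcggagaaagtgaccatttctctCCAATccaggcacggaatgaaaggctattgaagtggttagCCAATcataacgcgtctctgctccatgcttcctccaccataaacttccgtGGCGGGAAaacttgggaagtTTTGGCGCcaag

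A CHR element was found in 22 of the 25 promoters of the mitotic list (88.0%), against 14.0% of the 14270 promoters of all genes tested and 19.2% of all 32851 promoters in the table. It was found in 8 of the 27 promoters of the replication list (29.6%). Both a CHR element and a CCAAT box were held by 76.0% of the mitotic promoters and 14.8% of the replication promoters, against 5.66% for all genes tested. One of the 3 E2F forms was found in 12 of the 27 promoters of the replication list (44.4%), in 0 of the 25 promoters of the mitotic list and in 5.15% of those of all genes tested. Promoters were matched for 23 of the 27 mitotic genes, 22 of the 26 replication genes and 11211 of the 14257 genes tested. Genes that fell at least 4-fold as a whole held a CHR element in 14.4% of their promoters, near the share of all genes tested. Not every promoter of the list held the letters searched. The window of Birc5, a mitotic gene described below, had 0 matches for CHR or CCAAT, and that of the replication gene Mcm10 had 0 for E2F. These matches describe letters in a window and do not show binding.

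Among the mitotic genes Aurka, the kinase of the spindle poles, was at 102, 99.1, 95.1 and 98.1 CPM at day 2 and 24.4, 21.8, 20.2 and 18.3 CPM at day 8 (log2 fold change -2.23, SE 0.09, adjusted p = 6.46e-08). CPM are counts scaled to a common library total, so they are relative to the other RNA of a library and not amounts per cell. They are not divided by gene length. Levels of different genes are compared only where CPM are ranked or summed, and there long transcripts weigh more. All 4 day 2 libraries stood close together, and all 4 day 8 libraries were below them. The survivin gene Birc5, part of the chromosomal passenger complex, went from 124, 118, 99.7 and 115 to 25.3, 29.3, 24.2 and 23.4 CPM (log2 fold change -2.16, SE 0.09, adjusted p = 7.47e-08). Its 2 days did not overlap either. Kif2c, a microtubule-depolymerising kinesin of the centromere, fell with a log2 fold change of -1.98, and Tpx2, the activator of the Aurora A kinase, with -1.74. The 27 changes ran from -2.23 for Aurka to -0.96 for Cenpf, a large kinetochore protein. The summed level of the list went from 3238, 2959.7, 2843 and 2706 CPM to 919, 985, 864 and 952 CPM, and its mean stood at 659.6 CPM at day 10 and 465 at day 12. Mitotic transcripts were thus lower but still measured at day 8, and the 2 later means lay lower again.

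Genes that license and copy DNA came next. Mcm6, a subunit of the helicase that opens the DNA, stood at 163, 144, 146 and 142 CPM at day 2 and at 48.2, 47.8, 44.1 and 44.6 CPM at day 8 (log2 fold change -1.69, SE 0.07, adjusted p = 1.01e-07). The 4 lines lay within a few CPM of each other at day 8. Mcm3, another subunit, fell from a mean of 125 to 32.8 CPM (log2 -1.92), and Mcm10, which helps to assemble the active helicase, from 33.1 to 6.35 (log2 -2.38). The strongest falls of the list were in the loading factors Orc1 (log2 -2.59) and Cdc6 (-2.44), and the weakest in Rfc3, a clamp loader subunit (-0.69). In nucleotide synthesis, Rrm2, the regulated subunit of ribonucleotide reductase, went from 315, 300.4, 259.6 and 273 CPM to 53.4, 52.0, 45.9 and 48.0 CPM (log2 fold change -2.52, SE 0.07, adjusted p = 1.40e-08). Its partner Rrm1 fell less, with a log2 fold change of -1.72. Tk1, the thymidine kinase of dividing cells, fell with -2.17, and Umps, which makes the pyrimidine nucleotide UMP, with -1.53.

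Of 15 cyclins, their kinases and Cdc25 phosphatases, 13 fell, 1 rose and 1 did not pass (median -1.44). The shares of all genes tested were 30.5% called lower and 31.5% called higher. Cdk1, the kinase that drives mitosis, was at 228, 202, 176 and 191 CPM at day 2 and 52.3, 63.1, 51.6 and 56.3 CPM at day 8 (log2 fold change -1.83, SE 0.09, adjusted p = 2.00e-07). Its partner Ccnb1 fell (log2 -1.85), and so did the S phase cyclin Ccna2 (-1.65) and the G1/S cyclin Ccne1 (-1.54). Cyclins of the D type, which link growth signals to the cycle, changed less or in the other direction. Ccnd2 was the member that rose, from 968, 1171, 1168 and 1203 CPM to 1725, 1653, 1730.2 and 1591 CPM (log2 fold change 0.58, SE 0.08, adjusted p = 2.09e-04). Ccnd1 fell slightly (log2 -0.23), and Ccnd3 had a log2 of -0.12 without passing.

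Inhibitors of cyclin-dependent kinases mostly rose. Of 8 tested, 6 rose, 1 fell and 1 did not pass (median 0.65, beside 31.5% called higher over all genes). The count of Cdkn2a covers both of its products, p16 and p19Arf, which inhibit the D-type kinases and the p53 ligase Mdm2. Cdkn2a was at 36.0, 40.3, 32.0 and 36.2 CPM at day 2 and at 121, 90.2, 88.1 and 69.4 CPM at day 8 (log2 fold change 1.32, SE 0.12, adjusted p = 1.08e-05). Every day 8 library lay above every day 2 library, with mutant replicate 2 the lowest of day 8. Other rises were in Cdkn1c (log2 1.09), Cdkn2c (0.88), Cdkn2b (0.72), Cdkn1b (0.58), the gene of p27, and Cdkn1a (0.39), the gene of p21. The member that fell, Cdkn3 (-1.12), is a phosphatase that is itself expressed with the mitotic genes.

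In the list of E2F factors, pocket proteins and the MuvB core, 15 of 20 fell, 2 rose and 3 did not pass. Among all genes tested 30.5% were called lower and 31.5% higher. The 2 that rose were pocket proteins, Rb1 (log2 0.64) and Rbl2 (0.65), the gene of p130. Rbl2 went from 28.7, 26.7, 31.3 and 26.7 CPM to 43.5, 45.9, 43.6 and 45.2 CPM (log2 fold change 0.65, SE 0.09, adjusted p = 1.11e-04), and the days did not overlap. The third pocket protein gene, Rbl1 (p107), fell (-0.86). E2f4 fell too (-0.86), as did the MuvB genes Lin9 (-1.47), Lin54 (-0.71) and Rbbp4 (-0.50), while Lin37 and Lin52 did not pass. The mitotic activators Mybl2 and Foxm1 fell from means of 34.2 and 85.0 CPM to 6.17 and 22.8. The atypical repressors E2f7 (log2 -2.46) and E2f8 (-1.82), themselves made in S phase, fell too.

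**Figure D2:**
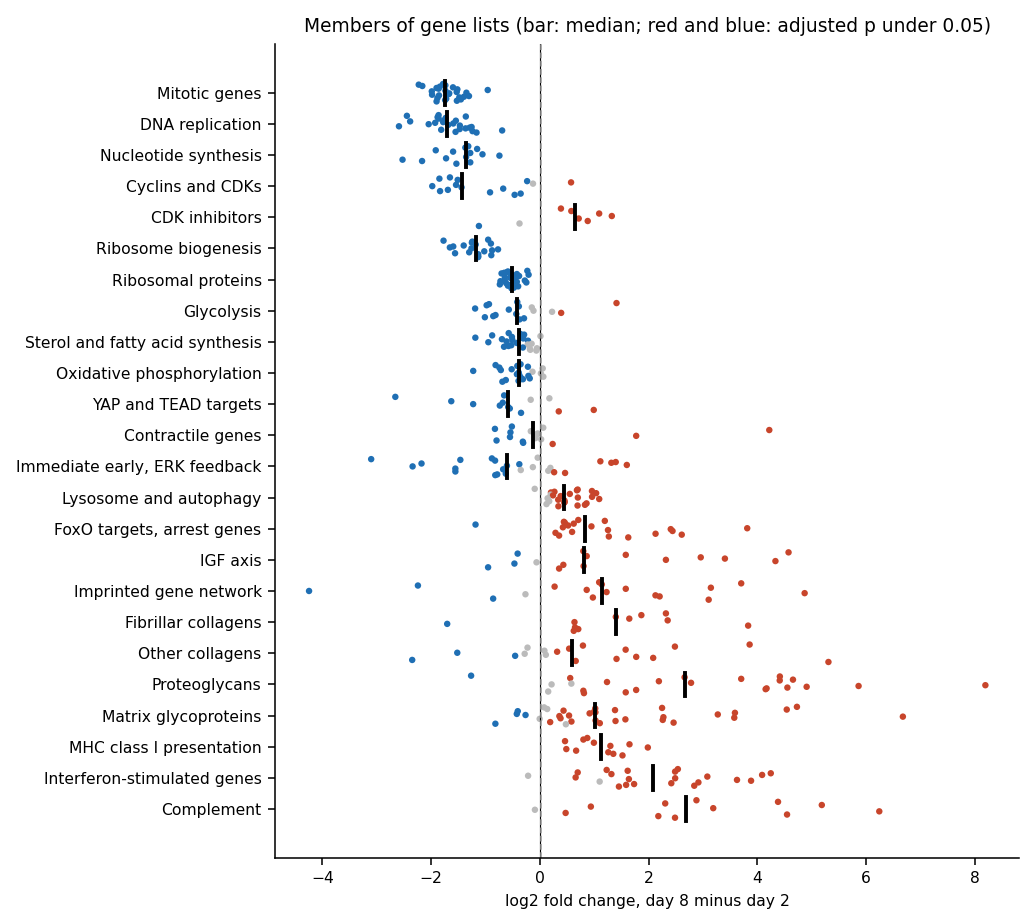
Log2 fold change of day 8 against day 2 (horizontal axis) for the members of 24 gene lists (rows), each point a gene, red or blue where the adjusted p was under 0.05 and grey where not, with a bar at the list's median and a dotted line at the median of all genes. The rows run from mitotic and replication genes, whose members all lie below 0, to proteoglycans, interferon-stimulated genes and complement genes, which have the highest medians of the 24 lists.

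Myc, the growth-promoting transcription factor, was at 70.1, 74.7, 56.6 and 73.4 CPM at day 2 and 24.6, 21.2, 20.9 and 19.7 CPM at day 8 (log2 fold change -1.67, SE 0.10, adjusted p = 5.92e-07). It was lower at day 8 in every line, with no overlap between days. Its antagonists of the MXD family rose in 2 cases, Mxd4 from 22.9 to 67.4 CPM (log2 1.57) and Mxd1 from 5.23 to 10.0 CPM (0.94), while Mxd3 fell (-0.62). Of the 11 genes of this network, 4 rose, 2 fell and 5 did not pass, beside 31.5% called higher and 30.5% lower over all genes.

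Genes that build ribosomes fell in all 19 tested cases (median -1.18), and all 28 cytoplasmic ribosomal protein genes fell by a smaller amount (median -0.51). Nop56, a core protein of the small nucleolar particles that modify ribosomal RNA, went from 266, 247, 234 and 222 CPM to 74.1, 82.1, 73.1 and 78.3 CPM (log2 fold change -1.65, SE 0.08, adjusted p = 1.89e-07). The day 8 libraries stood close together and well under those of day 2. Polr1b, a subunit of RNA polymerase I, fell with a log2 of -1.30, Nop2, a nucleolar RNA methyltransferase, with -1.59 and Rrp9, a U3 particle protein, with -1.56. Among ribosomal proteins the change ran from -0.73 (Rps2) to -0.21 (Rpl23), and the summed level of the list went from 35191, 30566, 29104 and 29750.4 CPM to 22893, 22801, 20592 and 22150.3 CPM. These genes have many near-identical pseudogene copies, and how shared reads were counted was not given, so their levels are uncertain.

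Metabolic lists fell on a smaller scale. The shares of all genes, 30.5% called lower and 31.5% higher, stand beside each count given here. In glycolysis 12 of 17 genes fell, 2 rose and 3 did not pass (median -0.41). Hk2, the inducible hexokinase, went from 95.8, 99.6, 112 and 103 CPM to 42.9, 42.5, 54.3 and 41.3 CPM (log2 fold change -1.19, SE 0.08, adjusted p = 1.00e-06). Pkm2, the symbol of the table for the pyruvate kinase gene, fell from a mean of 2898 to 1440.2 CPM. The glycolytic genes that rose were Aldoc, the brain form of aldolase (log2 1.41, from 0.836 to 2.19 CPM), and Pfkm, the muscle form of phosphofructokinase (0.39). In oxidative phosphorylation 18 of 22 genes fell and 0 rose (median -0.38), with the largest fall in Cycs, cytochrome c (log2 -1.22). Sterol and fatty acid synthesis gave 17 falls and 0 rises among 24 (median -0.39), among them Fasn, fatty acid synthase (log2 -1.19). Lysosomal and autophagy genes moved up, with 20 of 25 rising and 0 falling (median 0.45). Ctsd, the aspartic protease cathepsin D, went from 975, 956, 1162 and 1017 CPM to 1804, 2095, 2005 and 2080.3 CPM (log2 fold change 0.96, SE 0.08, adjusted p = 4.26e-06). All 4 lines gained, and the days were well apart. Psap, the precursor of the saposins that help to degrade sphingolipids, rose with a log2 of 0.86, and Gaa, the lysosomal alpha-glucosidase, with 1.04.

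Genes tied to growth arrest rose in 19 of 20 cases (median 0.83). Gas1, a membrane protein first found as growth arrest-specific, was at 10.9, 21.5, 12.7 and 28.5 CPM at day 2 and 172, 286, 262 and 270.1 CPM at day 8 (log2 fold change 3.82, SE 0.16, adjusted p = 1.01e-07). Each line gained more than the whole spread between lines at either day. The FoxO targets Sesn3 (log2 2.61), which restrains mTORC1, and Pik3ip1 (2.13), an inhibitor of PI3 kinase, rose, as did the factors Foxo1, Foxo3 and Foxo4 (0.52, 0.95 and 0.42). The exception was Cited2, a CBP-binding regulator, which fell from a mean of 112 to 49.2 CPM. Of 20 p53 targets 11 rose, 4 fell and 5 did not pass (median 0.38, beside 31.5% called higher and 30.5% lower over all genes). Gadd45a rose most (log2 2.66, from 6.08 to 38.3 CPM), while Mdm2 (-0.37), Bax (-0.32) and Aen (-0.37) fell.

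Of the 10 genes with the largest gain in CPM, Fn1, Col1a2, Col3a1, Col1a1, H19, Sparc, Igf2, Mgp, Igfbp5 and Malat1, 6 encode matrix proteins. Long and abundant transcripts weigh more in such a ranking. Of 11 fibrillar collagens 10 rose and 1 fell (median 1.40), and their summed level went from 9776, 11246, 11495 and 12932 CPM to 32285, 32585, 33639 and 36182 CPM, or from 1.14% to 3.37% of all counts on average. Type III collagen is made from a single gene, Col3a1, with levels of 347, 386, 498 and 546 CPM at day 2 and of 5250.1, 6220.2, 6867 and 6704 CPM at day 8 (log2 fold change 3.83, SE 0.09, adjusted p = 5.69e-09). The gap between the days was larger than the range within either. Type I collagen, the main collagen of connective tissue, rose in both chains, Col1a1 from 3461 to 9108 CPM (log2 1.40) and Col1a2 from 3597 to 11213 CPM (1.65). Col11a1, of the minor fibrillar type XI, rose with 2.32. The exception was Col2a1, the cartilage collagen, which went from 161, 271, 146 and 350.4 CPM to 86.2, 84.9, 35.7 and 77.0 CPM (log2 fold change -1.70, SE 0.18, adjusted p = 2.59e-05). Col2a1 was higher in both replicate 2 lines at day 2, and the days still did not overlap.

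Of 18 other collagens 11 rose, 3 fell and 4 did not pass (median 0.60, beside 31.5% called higher and 30.5% lower over all genes). Col8a2, a short-chain collagen, went from 1.62, 2.61, 2.21 and 4.21 CPM to 73.2, 106, 83.2 and 156 CPM (log2 fold change 5.31, SE 0.10, adjusted p = 1.79e-09). Lines kept the same order at both days, wildtype replicate 1 lowest and mutant replicate 2 highest. The beaded filament chain Col6a3 rose with a log2 of 1.41 and Col10a1, the collagen of hypertrophic cartilage, with 3.86. Col7a1, which makes the anchoring fibrils under epithelia, fell from a mean of 138 to 28.9 CPM (log2 -2.35).

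Proteoglycans had the highest median of the matrix lists (2.66), with 19 rises and 1 fall among the 23 of 25 members that were tested. Members that were near 0 at day 2 could enter the test through day 8, so this count is a description only. The small leucine-rich proteoglycans, which bind collagen and set fibril width, led the list. Lum, lumican, went from 3.77, 4.99, 4.64 and 6.57 CPM to 181, 278, 341 and 386 CPM (log2 fold change 5.86, SE 0.12, adjusted p = 2.68e-09). Wildtype replicate 1 was lowest and mutant replicate 2 highest at both days, and the days were far apart. Dcn, decorin, rose from a mean of 15.3 to 197 CPM (log2 3.70), Fmod, fibromodulin, from 14.0 to 295 CPM, and Aspn, asporin, from 18.8 to 407 CPM. Kera, keratocan, had 0 counts in all day 2 libraries and 161 at day 8, which is at least 43.3-fold higher when 3 counts over the group are taken as the floor, and the median of the list was the same with Kera at this bound. The member that fell was Acan, the large aggregating proteoglycan of cartilage, at 8.90, 11.9, 6.53 and 12.4 CPM and then 3.05, 3.76, 2.33 and 9.13 CPM (log2 fold change -1.26, SE 0.21, adjusted p = 4.55e-04). Its days overlapped, and mutant replicate 2 fell less than the other lines. Hyaluronan, the glycosaminoglycan that such proteoglycans bind, is made by Has2, which was among the strongest falls of all genes. Has2 was at 153, 110.4, 146 and 85.9 CPM at day 2 and at 14.8, 10.9, 11.7 and 10.0 CPM at day 8 (log2 fold change -3.36, SE 0.10, adjusted p = 1.97e-08). The 4 lines were closer together at day 8 than at day 2.

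Matrix glycoproteins rose in 25 of 33 tested cases and fell in 4 (median 1.02, beside 31.5% called higher and 30.5% lower over all genes). Fbn2, a microfibril protein, was at 51.0, 55.5, 60.9 and 62.0 CPM at day 2 and 737, 628, 649 and 747 CPM at day 8 (log2 fold change 3.59, SE 0.09, adjusted p = 9.79e-09), and all 4 lines rose. Thbs2, a matricellular thrombospondin, rose from a mean of 252 to 1387 CPM, Lama4, a laminin chain, from 20.1 to 195 CPM, and Comp, the cartilage oligomeric matrix protein, from 1.44 to 38.5 CPM. Fn1, fibronectin, had the largest gain in CPM of any gene, from 9116, 9830.1, 11315 and 10351 CPM to 16645, 19854, 19986 and 20163 CPM (log2 fold change 0.92, SE 0.07, adjusted p = 1.93e-06). It was the top gene of each day 8 library. Tnc, tenascin-C, fell (-0.82), as did Fbln2, fibulin-2 (-0.41).

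Enzymes that crosslink or modify collagen were divided, with 7 rising, 3 falling and 4 not passing among 14 (median 0.15). Over all genes tested 31.5% were called higher and 30.5% lower. Lox, lysyl oxidase, rose from a mean of 1436 to 2727 CPM, and its relative Loxl3 fell from 392 to 191 CPM. Matrix proteases and their inhibitors gave 18 rises and 7 falls among 25 (median 0.89), and all 25 were called. Members of the plasminogen system moved in both directions. Plaur, the urokinase receptor, fell from a mean of 158 to 33.6 CPM. An inhibitor of the system, Serpine2 or protease nexin-1, rose from 77.1, 82.8, 84.9 and 123 CPM to 519.6, 679, 573 and 695 CPM (log2 fold change 2.76, SE 0.10, adjusted p = 4.62e-08). Timp3, a matrix-bound inhibitor of metalloproteinases, rose (log2 1.63), while Timp1 fell (-1.08). Integrins, the matrix receptors, had 7 rises and 8 falls among 16, beside the same shares of all genes. The collagen and RGD receptors Itga11 (log2 1.82), Itga1 (2.06) and Itga8 (1.93) rose, and the laminin receptor chain Itga6 fell (-1.42).

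**Figure D3:**
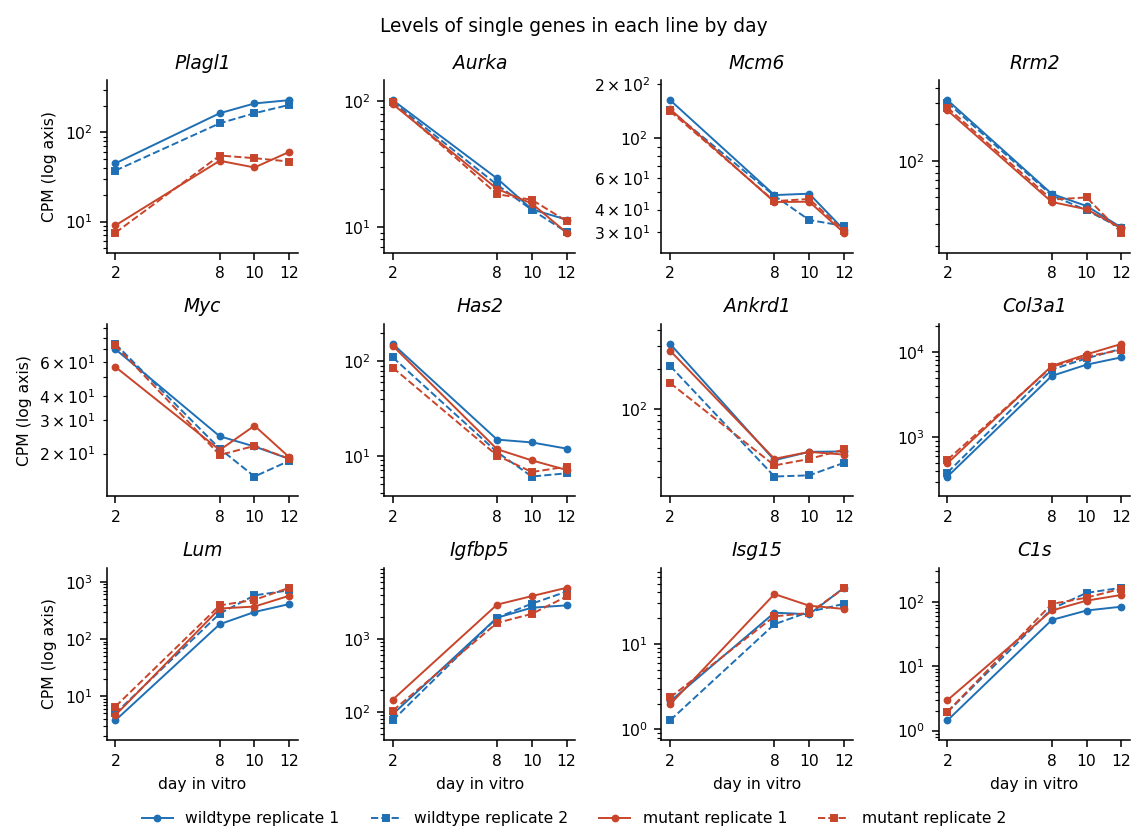
Level in CPM (vertical axis, log scale) by day in vitro (horizontal axis) of 12 genes in each of the 4 lines, wildtype blue and mutant red, replicate 1 with circles and replicate 2 with squares. Aurka, Mcm6, Rrm2, Myc, Has2 and Ankrd1 fall between days 2 and 8 in all lines, and Col3a1, Lum, Igfbp5, Isg15, C1s and Plagl1 rise, with the mutant lines of Plagl1 below the wildtype lines throughout.

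Growth factor genes showed some of the strongest changes. In the insulin-like growth factor (IGF) axis 11 of 15 genes rose, 3 fell and 1 did not pass (median 0.81). Among all genes tested 31.5% were called higher and 30.5% lower. Igf1 was at 5.51, 5.61, 7.51 and 6.68 CPM at day 2 and 126, 124, 154 and 204 CPM at day 8 (log2 fold change 4.58, SE 0.11, adjusted p = 7.10e-09). The days were far apart, and mutant replicate 2 was highest at day 8. The binding protein Igfbp5, which holds IGF in the matrix, went from 92.8, 76.5, 147 and 104 CPM to 1932, 1938, 2918 and 1642 CPM (log2 fold change 4.33, SE 0.12, adjusted p = 1.15e-08). Mutant replicate 1 was the highest line at both days. Igf2, the fetal growth factor, rose from a mean of 1103 to 3253 CPM, Igfbp2 from 17.9 to 141 CPM and Igfbp4 from 59.4 to 297 CPM. On the receiving side, the receptor Igf1r (-0.41) and the adaptor Irs2 (-0.95) fell, while Irs1 rose (0.81). Igfbp7 also fell (-0.47).

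The imprinted gene network is a set of growth-related imprinted genes, expressed from 1 parental copy, that tend to be expressed together. Its 17 genes gave 13 rises and 3 falls (median 1.14, beside 31.5% called higher and 30.5% lower over all genes). It was listed because the study is about Plagl1, which is one of its members. Plagl1 itself was at 45.0, 37.3, 9.07 and 7.51 CPM at day 2 and at 164, 127, 48.1 and 55.1 CPM at day 8 (log2 fold change 2.20, SE 0.17, adjusted p = 2.75e-06). It was higher at day 8 in each line, and the mutant lines were below the wildtype lines at both days. In a fit without the line as a block the change did not pass (log2 1.99, adjusted p = 0.0558). Mest, a hydrolase-like gene of mesoderm, went from 13.8, 12.1, 13.5 and 15.6 CPM to 335, 500.3, 285 and 527 CPM (log2 fold change 4.87, SE 0.16, adjusted p = 3.50e-08). H19, a noncoding RNA next to Igf2, rose from a mean of 568 to 4732 CPM and the zinc finger gene Zim1 from 6.16 to 52.2 CPM. Members that fell were Magel2, at means of 0.418 CPM and 0.0243 CPM, Gatm, the first enzyme of creatine synthesis (-2.24), and the amino acid transporter Slc38a4 (-0.86).

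Growth factor receptors and their PDGF and FGF ligands gave 10 rises and 6 falls among 20, beside 31.5% called higher and 30.5% lower over all genes. The PDGF receptors rose, Pdgfra from 45.9, 63.4, 45.4 and 90.8 CPM to 212, 247, 220.4 and 274 CPM (log2 fold change 2.01, SE 0.11, adjusted p = 4.65e-07) and Pdgfrb with a log2 of 0.95. Both days of Pdgfra were apart, although its day 2 level in mutant replicate 2 was high. Met, the receptor of hepatocyte growth factor, fell from a mean of 60.6 to 27.9 CPM. Among immediate early genes and the feedback genes of ERK signalling 14 of 25 fell, 6 rose and 5 did not pass (median -0.60). The ERK phosphatase Dusp4 was at 58.3, 56.1, 65.0 and 43.5 CPM at day 2 and 8.90, 5.59, 7.93 and 4.24 CPM at day 8 (log2 fold change -3.10, SE 0.12, adjusted p = 8.01e-08), with no overlap. Fosl1 (-2.34) and Etv4 (-2.18), transcription factors induced through ERK, fell as well. Other serum-induced factors went up, Fos by 1.60, Egr1 by 1.11, Egr2 by 1.40 and Egr3 by 1.32 on the log2 scale. Egr1 went from 82.9, 62.7, 84.4 and 76.1 CPM to 209, 122, 204 and 142 CPM, higher at day 8 in both replicate 1 lines than in the replicate 2 lines.

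Targets of YAP and TEAD, the factors that respond to cell spreading and tension, fell in 9 of 13 cases and rose in 2 (median -0.58). Ankrd1, a nuclear ankyrin repeat protein, was at 314, 213, 278 and 157 CPM at day 2 and at 40.4, 30.2, 41.3 and 36.8 CPM at day 8 (log2 fold change -2.66, SE 0.13, adjusted p = 2.35e-07). The 4 lines differed 2-fold at day 2 and less at day 8. Ctgf, the connective tissue growth factor, fell from a mean of 1555 to 674 CPM and the receptor tyrosine kinase Axl from 1311 to 424 CPM. The 5'-nucleotidase Nt5e (0.99) rose. Contractile genes were divided, with 7 falls and 3 rises among 16, beside 30.5% called lower and 31.5% higher over all genes. Tagln, an actin-bundling protein of smooth muscle, went from 4626, 3918, 4422 and 3813 CPM to 2419, 2467, 2102 and 2685 CPM (log2 fold change -0.80, SE 0.10, adjusted p = 6.46e-05). Acta2, smooth muscle actin, fell less (log2 -0.51), and Myh11, smooth muscle myosin, rose (1.77).

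Genes of TGF-beta and BMP signalling gave 9 rises and 11 falls among 25 tested. Over all genes tested 31.5% were called higher and 30.5% lower, so these counts are not far from the background. Ligands and receptors such as Tgfb2 (log2 1.60), Tgfbr2 (1.82) and Bmp4 (2.62) rose, and the inhibitory Smad7 (-1.84) and the target genes Id1 to Id4 (-1.31, -1.02, -0.65 and -1.15) fell. Smad7 went from 61.3, 70.7, 65.4 and 65.2 CPM to 17.0, 20.4, 18.3 and 17.7 CPM (log2 fold change -1.84, SE 0.08, adjusted p = 9.02e-08). In the Wnt list 13 of 24 rose and 6 fell (median 0.59), beside the same shares of all genes. Secreted antagonists led the rises, with Sfrp2 from 0.884, 0.922, 0.980 and 1.87 CPM to 17.6, 14.0, 21.3 and 21.6 CPM (log2 fold change 3.99, SE 0.17, adjusted p = 1.04e-07), Sfrp4 (log2 3.39) and Sfrp1 (2.47). The days of Sfrp2 did not overlap. The R-spondins Rspo2 (1.72) and Rspo3 (2.57), which raise Wnt receptor levels, also rose, whereas the transcription factor Lef1, at a mean of 2.02 CPM at day 2, fell (-1.96).

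Genes of innate immunity rose from low levels. Interferon-stimulated genes are switched on through factors that bind an interferon-stimulated response element (ISRE). Of the 25 listed, 22 were tested, 20 rose and 0 fell (median 2.08). A member made only at day 8 could enter the test through that day, so the count is a description. The promoters of Isg15, at chr4:156200769-156201068 on the minus strand, and of Ifit3, at chr19:34583279-34583578 on the plus strand, are printed since both genes are among the clearest rises. Capitals mark ISRE matches, searched on both strands as TTTCNNTTT, with overlapping matches run together.
Isg15 promoter: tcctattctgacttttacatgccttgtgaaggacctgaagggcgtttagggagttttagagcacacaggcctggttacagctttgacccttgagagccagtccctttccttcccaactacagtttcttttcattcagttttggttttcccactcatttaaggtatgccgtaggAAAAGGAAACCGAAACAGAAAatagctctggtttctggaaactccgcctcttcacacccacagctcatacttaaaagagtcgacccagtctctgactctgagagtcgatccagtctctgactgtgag
Ifit3 promoter: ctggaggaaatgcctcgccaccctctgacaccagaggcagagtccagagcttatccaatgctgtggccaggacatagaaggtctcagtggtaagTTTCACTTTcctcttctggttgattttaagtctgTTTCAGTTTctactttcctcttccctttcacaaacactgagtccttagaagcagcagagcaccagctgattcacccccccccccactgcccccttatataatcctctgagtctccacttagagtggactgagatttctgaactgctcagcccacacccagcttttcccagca

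An ISRE match was found in 13 of the 23 promoters of the list (56.5%; 19 of 22 genes matched), against 8.00% of the promoters of all genes tested. It was found in 30.8% of 13 promoters of MHC class I presentation genes, and in 14.2% and 4.48% of those of genes that rose or fell at least 4-fold. Isg15, a ubiquitin-like modifier, was at 2.12, 1.27, 1.96 and 2.36 CPM at day 2 and 23.2, 17.0, 38.2 and 21.0 CPM at day 8 (log2 fold change 3.63, SE 0.18, adjusted p = 1.90e-07). Mutant replicate 1 was the highest at day 8, and all 4 lines were above every day 2 library. Ifit3, which binds foreign RNA with its relatives, went from 1.00, 0.704, 1.34 and 0.990 CPM to 9.83, 7.31, 9.60 and 7.12 CPM (log2 fold change 3.08, SE 0.17, adjusted p = 3.98e-07). Bst2, a membrane protein that tethers virions, rose from a mean of 6.94 to 41.5 CPM. Ifit2 (-0.21) and Oas3 (1.10) did not pass.

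Genes of MHC class I presentation rose in all 12 cases (median 1.13). Tapbp, tapasin, which loads peptides, went from 27.4, 33.4, 27.8 and 37.0 CPM to 93.1, 84.4, 91.3 and 90.0 CPM (log2 fold change 1.52, SE 0.10, adjusted p = 1.25e-06). The light chain B2m rose from a mean of 407 to 739.5 CPM, and the class I genes H2-K1 and H2-D1 by log2 values of 1.00 and 0.46, though near-identical H2 genes may share reads. Of 15 complement genes 12 were tested, 11 rose and 0 fell (median 2.68). Members near 0 at day 2 could enter the test through day 8, so this count is a description only. C1s, a protease of the first complement component, was at 1.44, 1.94, 2.98 and 1.96 CPM at day 2 and 52.3, 77.8, 73.3 and 92.5 CPM at day 8 (log2 fold change 5.19, SE 0.15, adjusted p = 1.67e-08). Its partner C1ra rose with a log2 of 4.38, the central component C3 with 3.19 and the C1 inhibitor Serping1 with 2.49. C4b had a log2 of 6.24 and its near copy C4a -0.09, and reads of this pair may be divided between them. Chemokines and cytokines went both ways, with 7 rises and 7 falls among 16 tested, beside 31.5% called higher and 30.5% lower over all genes. The stem cell chemokine Cxcl12 went from 517, 478, 628 and 514 CPM to 1539.7, 1215, 1495 and 1422 CPM (log2 fold change 1.41, SE 0.08, adjusted p = 3.69e-07), and Il33, an alarmin, from a mean of 0.362 to 8.01 CPM, whereas the monocyte chemokine Ccl2 (-1.90) and the macrophage growth factor Csf1 (-1.24) fell.

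Markers of macrophages and blood cells, which such cultures can hold, are given beside these genes. Of 15 tested 8 rose and 0 fell (median 0.61, beside 31.5% called higher and 30.5% lower over all genes). None of the 15 had days that did not overlap, against 57.1% of all genes tested, and the lines differed widely at each day. Aif1, which was not tested, was at 0 in at least 1 library of day 8 (0.0 to 0.743 CPM). The other markers were above 0 in every library, with Csf1r at 1.66 to 10.6 CPM at day 2 and 1.31 to 14.8 CPM at day 8, and Lyz2 at 3.22 to 57.0 CPM and 4.56 to 87.0 CPM. Their summed level was 23.1, 100.3, 130.4 and 17.0 CPM at day 2 and 36.3, 143, 230.4 and 15.5 CPM at day 8, so that mutant replicate 1 and wildtype replicate 2 were high at both days. The interferon-stimulated genes summed to 164, 141, 163 and 143 CPM and then 430.1, 357, 506 and 372 CPM, and the complement genes to 49.1, 47.7, 60.4 and 52.4 CPM and then 279.7, 322, 319.8 and 345 CPM. In mutant replicate 2 the macrophage sum was lower at day 8 than at day 2, and the other 2 sums were higher at day 8 there, as in the other lines. This is a single line, and whether macrophages carried part of the interferon-stimulated or complement transcripts was not tested.

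**Figure D4:**
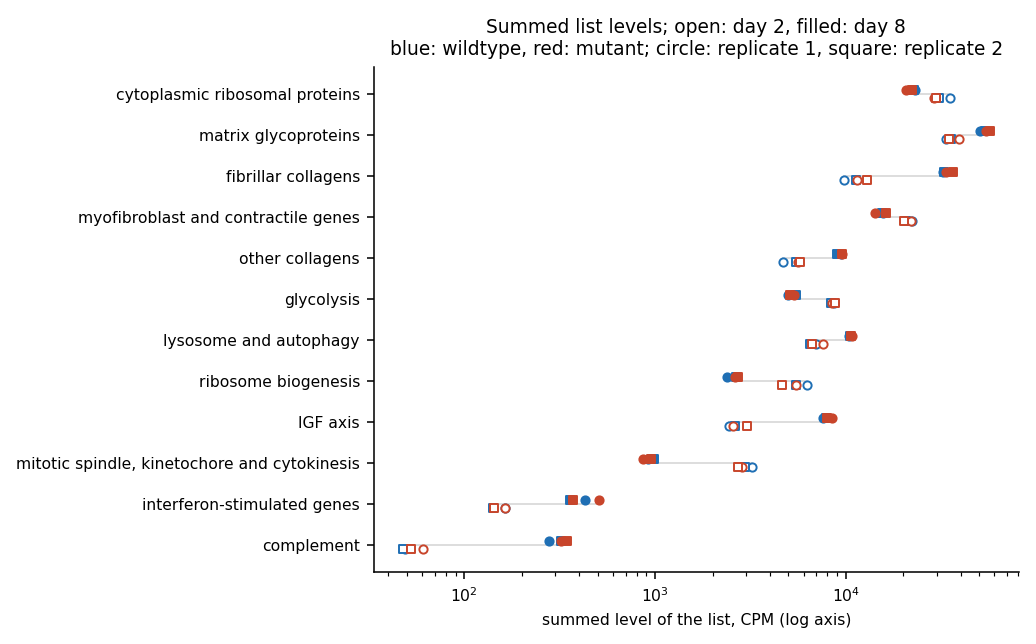
Summed level of the members of 12 gene lists in CPM (horizontal axis, log scale) in each library, open symbols for day 2 and filled for day 8, wildtype blue and mutant red, circles for replicate 1 and squares for replicate 2. Within each row the open and filled symbols stand apart, with complement and IGF axis genes moving right and mitotic and ribosome biogenesis genes moving left in all 4 lines.

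Factors that act on DNA methylation followed 2 directions. Of 10 genes 4 rose, 5 fell and 1 did not pass, beside 31.5% called higher and 30.5% lower over all genes. Dnmt1, which copies methylation after replication, went from 189, 217, 190.2 and 227 CPM to 83.7, 83.4, 85.8 and 82.3 CPM (log2 fold change -1.29, SE 0.08, adjusted p = 8.61e-07), and its guide Uhrf1 (-1.98) and the helicase Hells (-1.72) fell too. Dnmt3a, a de novo enzyme (1.16), and the oxidases Tet1, Tet2 and Tet3 rose. The other de novo enzyme of the list, Dnmt3b, was not among the rises. Tet2 was at 10.0, 7.62, 12.1 and 7.24 CPM at day 2 and 33.4, 26.3, 31.7 and 29.1 CPM at day 8 (log2 fold change 1.73, SE 0.12, adjusted p = 1.20e-06), without overlap. In the circadian list 7 of 15 rose and 2 fell, beside 31.5% called higher and 30.5% lower over all genes. The output factor Dbp went from a mean of 5.41 to 21.5 CPM and the period gene Per3 from 7.58 to 24.2 CPM, while Arntl fell (-0.37). The hour of harvest was not given. Antioxidant genes gave 9 rises and 8 falls among 19, beside the same shares of all genes. The quinone reductase Nqo1 fell from 155, 154, 145 and 153 CPM to 25.4, 36.7, 34.1 and 35.3 CPM (log2 fold change -2.22, SE 0.10, adjusted p = 1.51e-07), with the thioredoxin reductase Txnrd1 (-1.57) and glutathione reductase Gsr (-1.21). Secreted proteins of this list rose, namely Sod3, extracellular superoxide dismutase (2.08), and Sepp1, selenoprotein P (2.58).

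The labelled cell type was checked against marker genes. Fibroblast markers were measured in every library at both days, such as Vim (3777 to 4692 CPM at day 2 and 2654 to 2983 at day 8), Prrx1 (442 to 485 and 590.0 to 718) and Thy1 (292 to 430.3 and 151 to 339). Of the 12 markers 6 rose and 5 fell. Over all genes tested 31.5% were called higher and 30.5% lower, and these shares stand beside each marker count given here. Haemoglobin genes had 0 counts in all 8 libraries, and 0 of 8 erythroid markers were tested. Some muscle, fat and endothelial markers were also at 0 in all 8 libraries, among them Myf5, Myf6, Pax7, Adipoq and Tie1. Other members of these lists were counted in every library. The muscle factor Myog was at 0.018 to 0.181 CPM at day 2 and 0.037 to 0.253 CPM at day 8. The fat marker Lpl was at 10.5 to 15.7 and 13.6 to 25.2 CPM, and the endothelial Cdh5 at 0.177 to 0.363 and 0.033 to 0.113 CPM. Of the 13 cartilage markers tested 11 rose and 2 fell, the latter being the cartilage matrix genes Col2a1 (-1.70) and Acan (-1.26). Members near 0 at day 2 could enter the test through day 8, here and in the marker lists below, so counts of rises are a description. The summed level of the cartilage list was 1554, 1915, 1587 and 2772 CPM at day 8, highest in mutant replicate 2. Most of this sum was Col11a1, at 1371 to 2457 CPM at day 8. The transcription factor Sox9 went from 14.8, 21.4, 14.5 and 26.9 CPM to 26.1, 37.9, 28.4 and 47.4 CPM (log2 fold change 0.85, SE 0.08, adjusted p = 1.41e-05), and its days overlapped. Epithelial markers fell in 4 of 6 tested cases and rose in 1. Falls included the keratin Krt19 from a mean of 51.9 to 9.89 CPM and Krt18 from 9.84 to 1.78 CPM, and the rise was in Cdh1, the epithelial cadherin, from 0.101 to 0.687 CPM. Endothelial markers fell in 3 of 5 tested cases and rose in 1. Kdr, a VEGF receptor, fell from 13.4 to 1.74 CPM, and Tek, the angiopoietin receptor, rose from 0.521 to 1.70 CPM. Acta1, skeletal muscle actin, fell from 219 to 50.7 CPM. Pericyte markers rose in 4 of 7 tested cases and fell in 2, bone markers rose in 3 of 6 and fell in 1, and fat markers rose in 3 of 6 and fell in 1. Neural and glial markers rose in 1 of 6 and fell in 2, and muscle markers rose in 1 of 5 and fell in 1. Transcription factors of the mesenchyme rose in 11 of 19 tested cases and fell in 4. Whether other cells in the cultures carried these transcripts was not tested.

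Genes used to normalize other assays were not steady relative to the other genes. Of 14 common reference genes 9 fell and 1 rose (median -0.35, beside 30.5% called lower and 31.5% higher over all genes). Actb, cytoplasmic actin, went from 5169.7, 5062, 4496 and 5029 CPM to 2532, 2294, 2221 and 2336 CPM (log2 fold change -1.07, SE 0.07, adjusted p = 6.88e-07). The 4 lines lay close together at each day, and the days were far apart. Gapdh (log2 -0.98) and Tfrc, the transferrin receptor (-2.03), also fell. The riser was B2m, as given above. Polr2a, a subunit of RNA polymerase II, had a log2 of -0.17 and did not pass. Gapdh and ribosomal protein genes have pseudogene copies that may take part of their reads.

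By size of fold change, the strongest rises among genes with at least 5 CPM at one day included matrix and secreted proteins. Abi3bp, a matrix-bound partner of the adaptor Abi3, was at 1.06, 1.36, 1.67 and 1.78 CPM at day 2 and 160.2, 134, 173 and 219 CPM at day 8 (log2 fold change 6.86, SE 0.12, adjusted p = 1.79e-09). Mutant replicate 2 was highest at both days. Penk, the enkephalin precursor, went from 2.59, 4.69, 3.05 and 5.56 CPM to 66.4, 228, 157 and 464 CPM (log2 fold change 5.66, SE 0.23, adjusted p = 8.97e-08), and it differed between lines by more at day 8 than at day 2. The chemokine Cxcl15 had 3 counts in the 4 day 2 libraries and 1203 at day 8, a ratio of 323 (95% counting interval 110 to 1570). This interval is for pooled counts and leaves out the spread between lines, so it is too narrow for the change itself. Cldn19, Olfml1, Scara5, Matn4, Egfl6, Cilp2, Fmo1, Islr, Clec11a, Fxyd1 and Wdr72 complete the list with Lum, at log2 fold changes from 5.40 (Wdr72) to 7.87 (Cldn19), and each of them was at a mean of 1.54 CPM or less at day 2 apart from Lum. In all, 6 called genes had 0 counts at day 2, and 0 called genes had 0 at day 8. The falls were smaller. U90926, a gene of unknown role, went from 36.5, 41.4, 15.3 and 26.3 CPM to 0.272, 0.907, 0.661 and 1.03 CPM (log2 fold change -5.31, SE 0.31, adjusted p = 5.38e-07). Behind it came the cornified envelope gene Lce1h (-4.94), the transporter Slco4a1 (-3.74), the lipid carrier Fabp7 (-3.54) and the protease inhibitor Serpinb2 (-3.42). Other genes of stratified epithelium in this list were Pkp1, a desmosomal plakophilin (-3.22), and S100a7a (-3.46). The abundant noncoding nuclear RNA Malat1 was also among the largest gains in CPM, at 1795, 1556, 1603 and 1024 CPM and then 2694, 2131, 3799 and 3647 CPM (log2 fold change 1.03, SE 0.19, adjusted p = 0.00118), and its mean was 1643 CPM at day 10.

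Whether both genotypes changed alike was asked with an interaction term. In edgeR 0 of 14257 genes (0.0%) had a change that differed by genotype, 229 had an unadjusted p under 0.05, and DESeq2 called 1. Plagl1 rose by log2 ratios of 1.87 and 1.76 in the wildtype lines and 2.40 and 2.87 in the mutant lines, a difference of 0.83 that did not pass (adjusted p = 0.9999). With 2 lines per genotype, a miss does not show that the changes were equal. Leaving out mutant replicate 1 gave 11 calls, and leaving out wildtype replicate 2 gave 31.

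The same test between the letters called 26 genes (0.182%), of which 16 changed in a more negative direction in the L lines and 10 in a more positive one, and 2918 had an unadjusted p under 0.05. Leaving out wildtype replicate 1 gave 0 calls, leaving out mutant replicate 1 gave 584 and leaving out wildtype replicate 2 gave 1092. Lgr5, an R-spondin receptor and stem cell marker, had day 8 to day 2 log2 ratios of 4.77 and 3.99 in the I lines and 2.45 and 2.34 in the L lines. It rose in all lines, and by more in the I lines. Dlk1, an imprinted Notch-related ligand, had ratios of 2.13 and 1.71 in the I lines and 0.60 and 0.21 in the L lines. Crabp1, a retinoic acid binding protein, fell in all lines, with ratios of -0.53 and -0.68 in the I lines and -1.86 and -2.24 in the L lines. Junb, a serum-induced AP-1 factor, had ratios of 0.20 and 0.32 in the I lines and -0.74 and -1.16 in the L lines, and its change over all lines did not pass.

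**Figure D5:**
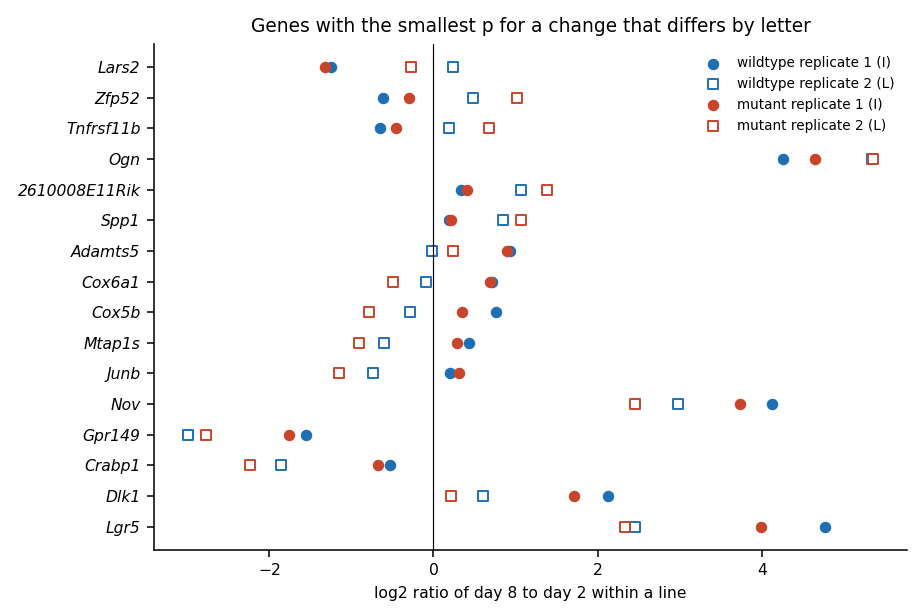
Log2 ratio of day 8 to day 2 (horizontal axis) in each of the 4 lines for the 16 genes (rows) with the smallest p for a difference between the letters I (filled) and L (open), wildtype blue and mutant red. In each row both filled symbols lie on one side of both open symbols, as for Lgr5, where the I lines reach 4.77 and 3.99.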

How the data were processed

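RNA of 8 cultures, 4 lines at days 2 and 8 in vitro, had been sequenced from TruSeq stranded libraries. The authors deposited raw counts per gene, one whole number per gene and library, and they used, per the submitters' processing notes, HTSeq 0.6.1p1, TopHat2 2.1.1 with Bowtie2 2.2.9, and bcl2fastq 2.18, on the mouse build mm9. For the counting, the strand setting, the annotation and the handling of reads shared by several genes are not given in the sources used here. Genes with near-identical copies, overlapping genes and antisense genes are therefore uncertain. Some genes carry older symbols (Pkm2, Ctgf, Sepp1, Nov).

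From these counts, log2 fold changes of day 8 minus day 2 were fitted with edgeR 4.0.16 in R 4.3.3 (TMM scaling, edgeR's default filter on low counts, robust quasi-likelihood test, line and day as terms, 3 residual degrees of freedom). P-values were adjusted over all 14257 tested genes by the Benjamini-Hochberg method, with a threshold of 0.05. A standard error (SE) is the value that the test statistic implies. Every adjusted p in the text is from edgeR's test unless another tool is named. Differences between genotypes or between letters are interaction terms, with 2 residual degrees of freedom. CPM are on the TMM scale, with n = 4 lines at each day. An exact sign permutation over 4 pairs cannot give a two-sided p below 0.125, so none was used for single genes. The fits were also run on simulated counts in which only a small share of the genes changed. A far larger share was called here, so that run does not test the scaling for these data.

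The same line was sampled at both days, and the line was therefore a block. Deviations from the day means correlated between the days within each line (0.135, 0.247, 0.356 and 0.242), although wildtype replicate 1 at day 2 correlated more with mutant replicate 2 at day 8 (0.194). In each library 3 counts equal 0.0496 to 0.109 CPM. The table held 0 columns of other samples.

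Members, gene lists and tests were chosen with earlier results of these data known. Genes were named by rule: Plagl1, the 15 largest rises and 15 largest falls among called genes whose days did not overlap and whose mean reached 5 CPM at one day (predicted genes left out), the 10 largest gains and 10 largest losses in CPM, up to 4 members per list with the smallest p and up to 2 that went against the list, and up to 10 per interaction. Other list members named were chosen after their values were seen. Alternatives were other scalings and filters, DESeq2 1.42.0, limma-voom (limma 3.58.1), a fit without the block, all 16 libraries, a test against a fold of 1.5, each line left out and each genotype or letter alone. Promoters are RefSeq windows of GRCm38.p6, whose coordinates are not those of mm9.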

Additional observations from a re-analysis of the deposited data

Results flagged for a closer look

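Single lines stood apart from the other 3 in the size of their day 8 to day 2 change for 11 of the genes examined, by Dixon's criterion for groups of 4. Chance gives about 1 such case in 20 groups, and 272 named genes were examined. At that rate 11 cases are no more than chance alone would give, so they are listed as a description only. Mutant replicate 2 was the line that differed in 5 of them. Its log2 ratio was -0.43 for Acan (-1.65 to -1.47 in the others), 1.77 for the aldolase gene Aldoc (1.18 to 1.26), 4.19 for the epithelial cadherin Cdh1 (1.85 to 2.16), 0.37 for the kinase inhibitor Cdkn2b (0.81 to 0.87) and 2.61 for the collagen receptor chain Itga1 (1.79 to 1.92). Wildtype replicate 1 had a ratio of 2.89 for Gadd45a (2.56 to 2.58), -2.60 for Nqo1 (-2.12 to -2.07) and 2.59 for Thbs2 (2.41 to 2.43). Mutant replicate 1 had 3.11 for the interferon-stimulated gene Bst2 (2.29 to 2.41) and 0.96 for Sox9 (0.82 to 0.82). Wildtype replicate 2 had -0.15 for Lpl, lipoprotein lipase, against 0.61 to 0.68 in the other lines. All 11 kept one sign in the 4 lines except Lpl.

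Differences between the letters I and L are the second group. Of the 10 genes with the smallest p, 8 had log2 changes that were lower in the L lines, with differences (L minus I) of -1.45 for Crabp1, -1.53 for the Notch-related ligand Dlk1, -2.06 for Lgr5, -1.20 for Junb, -0.99 for the cytochrome oxidase subunit Cox6a1, -1.23 for the receptor Gpr149, -1.22 for Nov, a matricellular protein, and -1.12 for Mtap1s, a microtubule-associated protein. The change was higher in the L lines by 1.27 for Lars2, the mitochondrial leucyl-tRNA synthetase, and by 1.21 for the zinc finger gene Zfp52. Each passed the interaction test of edgeR at an adjusted p under 0.05. What the letters mark was not given, so no source of these differences was tested.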

How the results depend on the processing

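With the 4 lines as they are, 3 residual degrees of freedom and at least 28079241 counts per library limit the precision for genes of low level. Without the replicate block 4511 genes were higher and 4369 lower, and 8580 of the 8848 calls kept their sign. Same-numbered lines of the 2 genotypes were not treated as pairs. A test against a fold of 1.5 called 1961 higher and 1632 lower. Leaving out each line in turn gave 3695 to 4403 higher and 3636 to 4441 lower. Each genotype alone, or each letter alone, gave counts within 1.5 times the main ones. Among calls the share higher was 50.8%, and 56.3% with library totals. No main call was called with the opposite sign in any alternative.

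For differences by genotype, DESeq2 called 1 gene, and leaving out a line gave 0 to 31. For differences by letter, DESeq2 called 373, limma-voom 93, no filter on low counts 927 and upper quartile scaling 61, and leaving out a line gave 0 to 1092. With 1 line left in an arm, that line is assumed to vary like the others. The cause was not tested. Of 4889 comparisons of named genes with an alternative, 4767 kept direction and call, 109 lost the call and 7 reversed. The reversed values were Cox6a1 -0.31 in the L lines, Junb 0.26 in the I lines, Mtap1s 0.37 in the I lines, and Zfp52 -0.46 in the I lines and -0.061 in the wildtype lines. Without single lines, Mtap1s ran from -0.44 to 0.037 and Zfp52 from -0.14 to 0.39. None of these 4 changes was called.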
